A study of Mus musculus with 2 samples.

Results

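The JAK, STAT and SOCS genes described are 3 Janus kinases (Jak1, Jak2 and Tyk2), 4 signal transducers and activators of transcription (Stat2, Stat3, Stat5b and Stat6) and 2 suppressors of cytokine signalling (Socs2 and Socs3). They were taken by gene symbol, 9 of the 32285 genes in the count matrices, and not by any measured value. Their RNA was read at the 5′ end, one unique molecular identifier (UMI) per captured transcript, in single cells of the hippocampus. The 2 libraries came from untreated 4-week-old mice, one from Crlf3-mutant mice carrying the L389P allele of the cytokine receptor-like factor Crlf3 and one from wild-type mice. For each genotype, 4 hippocampi taken from 2 mice were pooled and dissociated with enzymes. Myelin and debris were then depleted, and cells that excluded a dead-cell dye were sorted and loaded as 1 sample. Zygosity and strain are not given in the sources used here.

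Cytokine receptors of this kind have no enzyme of their own. Ligand binding brings receptor-bound Janus kinases together, the kinases phosphorylate the receptor and a STAT protein, and the STAT dimer enters the nucleus and binds DNA. Among the genes it switches on are the SOCS genes, whose proteins block the kinases or the receptor and so end the signal. In brain this pathway carries interferon, interleukin and growth hormone signals, and its inducible members also respond to tissue handling.

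The mutant matrix held 43103469 UMIs in 5720 barcodes and the wild-type matrix 51328178 UMIs in 7713 barcodes. After filters on genes, UMIs and mitochondrial share and removal of called doublets, 5276 mutant and 7098 wild-type cells remained, and their median depth was 7385 and 6193 UMIs. Of the analysed cells, 54 in each library carried a barcode that the other library also held. Cells were placed in classes by gates on marker genes, which took 97.3% of mutant and 97.4% of wild-type cells, not counting those in more than 1 gate. A class name means that the cells carry that type's markers. The 6 classes with at least 100 cells in each library were microglia (3239 mutant and 4425 wild-type cells), endothelial cells (792 and 806), astrocytes (487 and 776), neuron lineage cells (221 and 176), mural cells (166 and 127) and choroid plexus cells (158 and 441). Only 2 cells of each library passed the mature neuron gate, so the tissue's main neurons are not described. Crlf3 itself was at 139 CPM in mutant and 137 CPM in wild-type microglia, and a point mutation leaves no mark on such a count, so this does not check the labels.

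Levels are given as CPM: within each class and library, a gene's UMI total was divided by the total of all genes and scaled to 1000000. The intervals are exact Poisson 95% intervals on levels and exact conditional binomial 95% intervals on ratios. They cover counting error only, since there was 1 library per genotype and no test between genotypes was possible. Levels are compared between classes for 1 gene at a time.

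Jak1, Tyk2, Stat3, Stat6 and Socs3 had their highest measured level in microglia, Jak2, Stat2 and Socs2 in endothelial cells, and Stat5b in astrocytes, in both libraries. The interval of the highest class overlapped that of another for Stat5b in both libraries, and that of mural cells for Jak2, Stat6 and Tyk2 in the mutant library, so for these 4 genes the highest class is not set apart by counting error alone. Choroid plexus cells were lowest for 6 of the 9 genes, Jak1, Jak2, Tyk2, Stat2, Stat3 and Socs3. The highest class stood above the lowest by 5.32 times (mutant) and 5.04 times (wild type) for Stat5b, the flattest gene. The gap was 324 and 137 times for Stat6, and 101 and 117 times for Socs2.

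**Figure D1:**
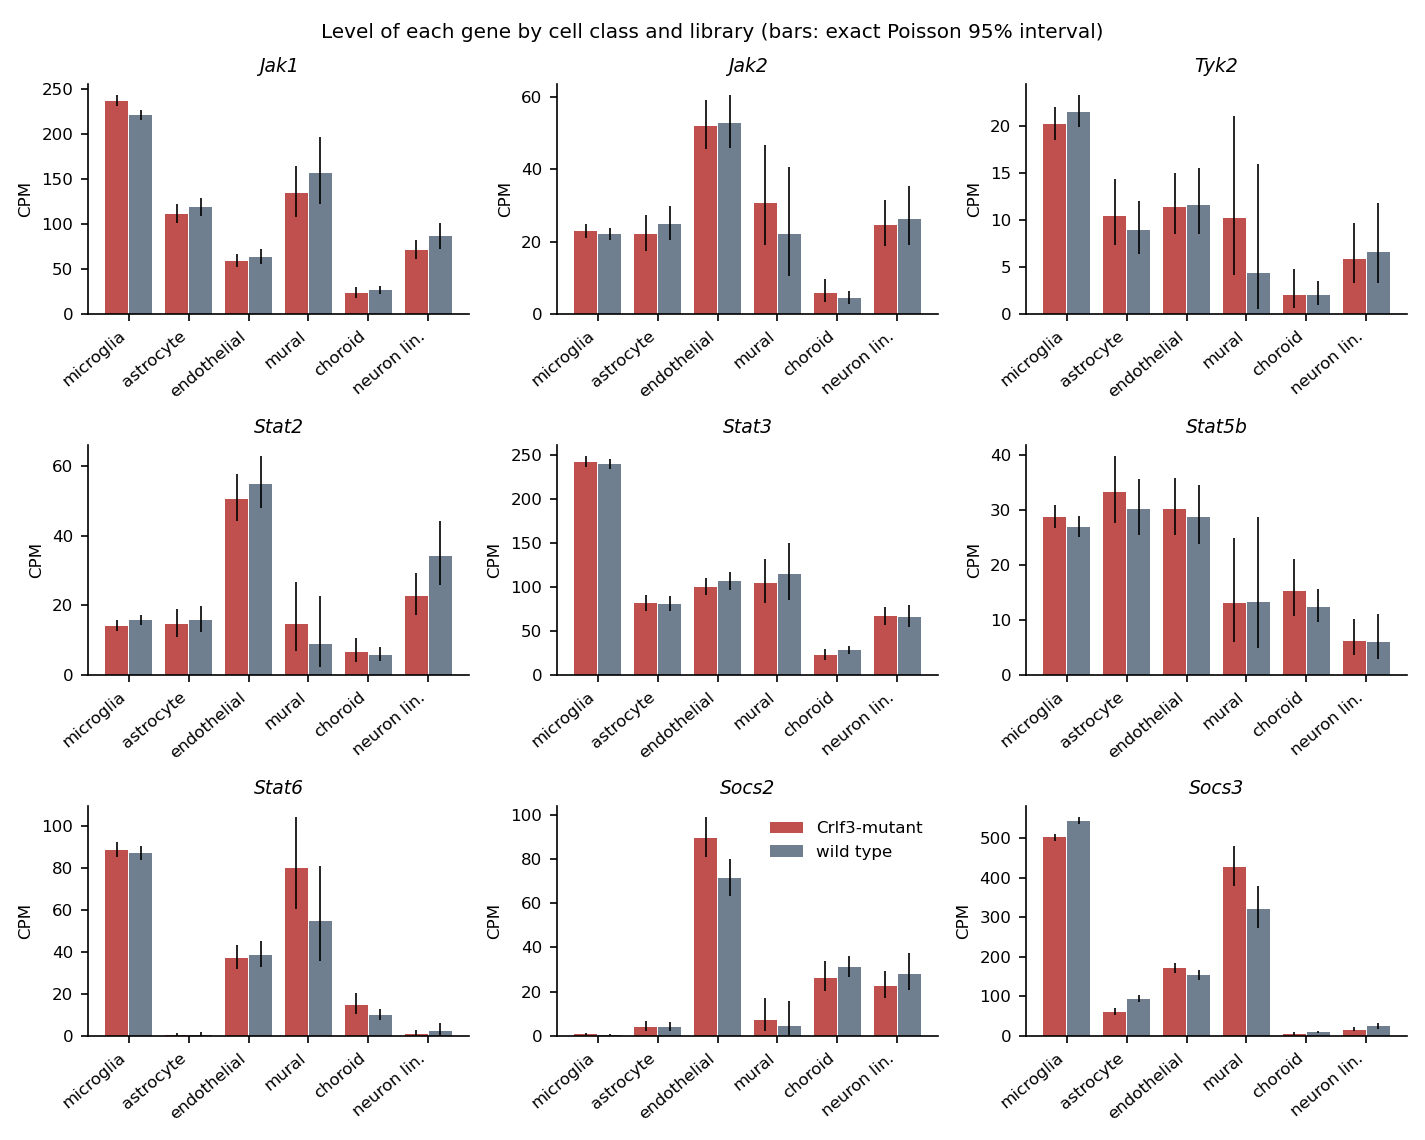
Level in CPM (vertical axis, from 0, with its own scale for each gene) of the 9 genes in the 6 classes (horizontal axis), for the Crlf3-mutant (red) and wild-type (grey) library; bars are sums over all cells of a class and lines are exact Poisson 95% intervals. Jak1, Tyk2, Stat3, Stat6 and Socs3 peak in microglia, Jak2, Stat2 and Socs2 in endothelial cells, and mutant mural cells overlap the highest class for Jak2, Stat6 and Tyk2.

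Of the receptors that recruit these kinases, Il10ra, the ligand-binding chain for interleukin 10, was at 633 CPM in mutant and 606 CPM in wild-type microglia and at most 12.1 CPM in the other 5 classes. Ifngr1, the ligand-binding chain for interferon gamma, was at 745 and 776 CPM in microglia, and Il6ra, which binds interleukin 6, at 305 and 300 CPM. Il4ra, which signals through Stat6, was at 86.0 and 86.4 CPM in microglia and at 0.824 and 0.424 CPM in astrocytes. Each of these 4 receptor genes had a similar level in the microglia of both libraries.

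Endothelial cells were highest in the type I interferon receptor chains. Ifnar1 was at 156 CPM in mutant and 145 CPM in wild-type endothelial cells, and Ifnar2 at 301 and 291 CPM. Osmr, the oncostatin M receptor, was at 85.5 and 80.8 CPM in endothelial cells and at 69.9 and 94.7 CPM in mural cells. In microglia Osmr had 0 UMIs in the mutant and 1 in the wild-type library. Cntfr, which binds ciliary neurotrophic factor, was at 259 and 236 CPM in astrocytes and at most 25.1 CPM in the other 5 classes. Ghr, the growth hormone receptor, was at 42.3 and 49.5 CPM in astrocytes and at 23.7 and 19.4 CPM in endothelial cells. Lifr, the leukaemia inhibitory factor receptor, was at similar levels in astrocytes (69.5 and 71.3 CPM) and microglia (65.5 and 67.5 CPM). Il6st, the signalling chain shared by the interleukin 6 family, was found in every class, from 90.4 and 92.0 CPM in microglia to 12.8 and 11.8 CPM in choroid plexus cells.

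**Figure D2:**
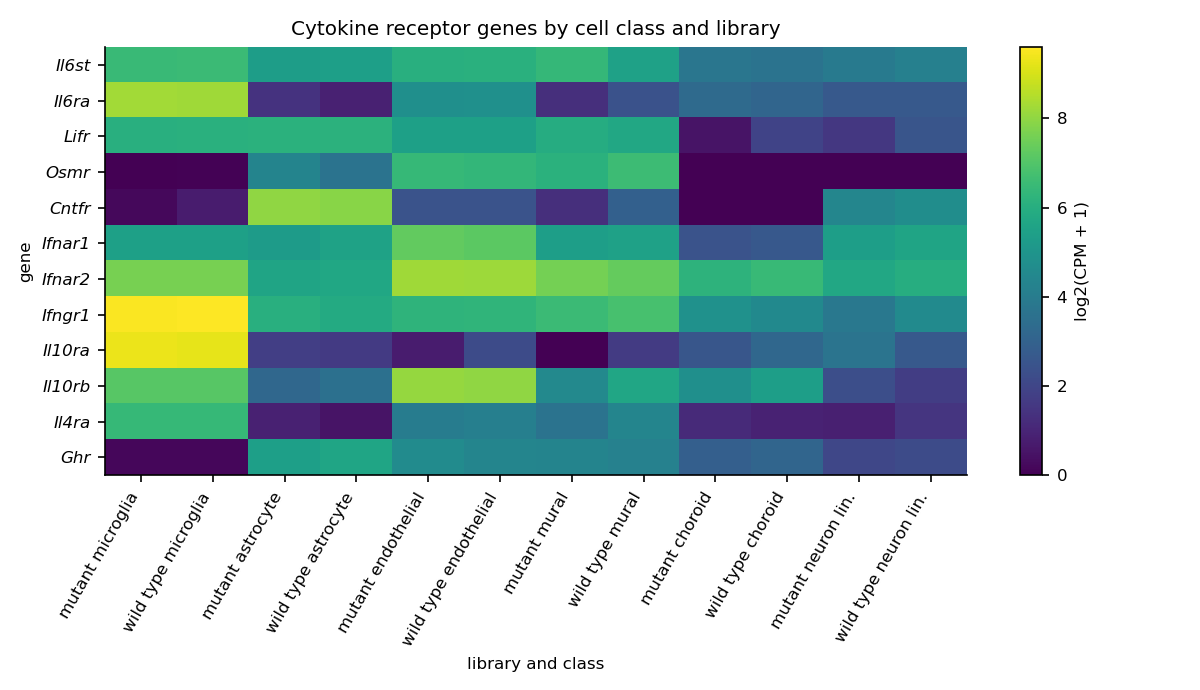
Levels of 12 cytokine receptor genes (rows) in each class and library (columns, mutant left of wild type), coloured by log2(CPM + 1). Il10ra, Ifngr1 and Il6ra are brightest in microglia, Ifnar1, Ifnar2 and Il10rb in endothelial cells and Cntfr in astrocytes, in both libraries.

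Jak1 partners most cytokine receptors, including those of interferons and of the interleukin 6 family. It was at 237 CPM (231 to 243) in mutant and 221 CPM (216 to 227) in wild-type microglia. Mural cells (134 and 156 CPM) and astrocytes (111 and 119 CPM) came next, with overlapping intervals in both libraries. Neuron lineage cells held 71.0 and 86.1 CPM, endothelial cells 59.1 and 63.3 CPM, and choroid plexus cells 23.5 and 26.2 CPM. Within mural cells Jak1 was at 174 CPM in mutant and 217 CPM in wild-type pericytes, the capillary wall cells, and at 75.2 and 48.8 CPM in smooth muscle cells. The locus lies at chr4:101152367-101265282 on the minus strand.

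Jak2 serves the growth hormone, prolactin and interferon gamma receptors. It was at 51.9 CPM (45.5 to 59.1) in mutant and 52.7 CPM (45.8 to 60.4) in wild-type endothelial cells. Microglia, astrocytes, mural and neuron lineage cells lay between 22.0 and 30.6 CPM in the mutant library and between 22.0 and 26.3 CPM in wild type, and their intervals overlapped. Choroid plexus cells were at 5.77 and 4.28 CPM. In the mutant library the interval of mural cells, with 21 UMIs, reached that of endothelial cells. Among the 7443 genes with at least 50 CPM in some class and library, Ifnar1 and Yes1 were among the 3 whose class pattern was most like that of Jak2 (Pearson r of log2(CPM + 10) of 0.982 and 0.972 over 12 points). These 12 points are 6 classes of the same 2 libraries, so the values only describe likeness.

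Tyk2 works beside Jak1 at the receptors for type I interferons and interleukin 10. It was at 20.2 CPM (18.5 to 22.0) in mutant and 21.5 CPM (19.9 to 23.3) in wild-type microglia. Endothelial cells held 11.4 and 11.6 CPM, astrocytes 10.4 and 8.91 CPM, and choroid plexus cells 2.06 and 1.96 CPM. Below microglia the intervals of neighbouring classes overlapped in both libraries. Tyk2 shares 24326 bases with 1700084C06Rik, a gene on the opposite strand. Whether counting used strand is not given in the sources used here, so the 2 genes may not be fully separated.

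Stat3 carries signals of the interleukin 6 and interleukin 10 families. It was at 242 CPM (236 to 248) in mutant and 240 CPM (234 to 246) in wild-type microglia. Mural cells (105 and 115 CPM) and endothelial cells (100 and 106 CPM) followed with overlapping intervals, then astrocytes (81.5 and 80.9 CPM), neuron lineage cells (66.7 and 65.8 CPM) and choroid plexus cells (22.7 and 28.5 CPM). The lineage and vessel averages hid finer differences that both libraries shared. Neuroblasts, young neurons after their last division, held 96.1 CPM in the mutant and 93.5 CPM in the wild-type library, against 23.9 and 28.2 CPM in cycling progenitors. Smooth muscle cells held 179 and 183 CPM, and pericytes 54.1 and 75.8 CPM. The 3′ end of Stat3 overlaps Stat5a by 72 bases on the opposite strand.

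Stat6, the transducer of interleukin 4 and 13 signals, had the widest gap between its highest and lowest class among the transcription factors. It was at 88.8 CPM (85.2 to 92.5) in mutant and 87.2 CPM (83.9 to 90.6) in wild-type microglia, from 2298 and 2581 UMIs. In astrocytes 1 mutant and 3 wild-type UMIs were counted, or 0.275 and 0.637 CPM. Neuron lineage cells had 2 and 4 UMIs. A Stat6 UMI was found in 49.0% of mutant and 42.9% of wild-type microglia (median 7726 and 6342 UMIs per cell), against 0.205% and 0.258% of astrocytes (median 7503 and 5978.5 UMIs). With every cell thinned to 2000 UMIs the microglial shares were 16.3% and 15.8%, leaving out 35 mutant and 66 wild-type cells. Whether the few UMIs in astrocytes are background was not tested. Mural (80.2 and 55.1 CPM), endothelial (37.2 and 38.6 CPM) and choroid plexus cells (14.8 and 9.99 CPM) lay between. Ehd4 had the class pattern most like Stat6 (Pearson r of 0.987 over the 12 points), followed by Fam3a and Mcfd2.

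Stat5b, a growth hormone and prolactin transducer, was the most even. It was at 33.2 CPM (27.6 to 39.7) in mutant and 30.1 CPM (25.4 to 35.5) in wild-type astrocytes, at 30.2 and 28.8 CPM in endothelial cells and at 28.8 and 26.9 CPM in microglia. These 3 classes overlapped in both libraries, so no order among them can be read. Neuron lineage cells were lowest at 6.24 and 5.98 CPM. Stat5b and its neighbour Stat5a are near-identical copies, so reads may be split or lost between them and the level is uncertain. Stat5a was counted at 10.6 and 11.4 CPM in microglia and at 1.34 and 3.79 CPM in endothelial cells.

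Stat2 joins Irf9 in the complex that type I interferons activate. It was at 50.6 CPM (44.2 to 57.6) in mutant and 55.0 CPM (48.0 to 62.8) in wild-type endothelial cells, with neuron lineage cells next at 22.6 and 34.1 CPM. Microglia (14.1 and 15.8 CPM) and astrocytes (14.6 and 15.7 CPM) overlapped, and choroid plexus cells had 6.59 and 5.71 CPM. Its partner gene Irf9 was also high in endothelial cells, at 99.4 CPM in mutant and 103 CPM in wild type, against 35.1 and 35.4 CPM in microglia. Usp18, an interferon-induced brake on the receptor, was at 71.4 and 68.4 CPM in endothelial cells and at 2.32 and 3.14 CPM in microglia. Of the 16 interferon response genes measured in endothelial cells, 0 differed between genotypes by more than 1.5 times. Of all 8491 genes measured there 2.17% did, so a count of 0 does not set this list apart.

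The Stat2 promoter is shown because the gene answers the signal it transmits, and 2 of the 3 motifs searched lie side by side in it. The RefSeq window (GRCm38.p6, chr10:128270248-128270547, plus strand, 300 bases, 5′ to 3′) has in capitals TTTCAGTTTC, which read on the other strand is GAAA, any 2 bases, GAAA, and starts 222 bases before the gene start. It also has in capitals TTCCCTAGAA, in which TTC and GAA stand 4 bases apart, 210 bases before that start. The annotation used for the loci places the start of Stat2 at 128270559, just past this window.

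Stat2: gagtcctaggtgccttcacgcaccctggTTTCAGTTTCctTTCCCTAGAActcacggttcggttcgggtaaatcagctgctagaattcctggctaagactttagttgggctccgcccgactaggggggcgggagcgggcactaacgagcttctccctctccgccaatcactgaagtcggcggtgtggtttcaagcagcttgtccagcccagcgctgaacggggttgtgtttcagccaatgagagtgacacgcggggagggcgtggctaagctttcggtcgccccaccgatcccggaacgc

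The pair of GAAA blocks with any 2 bases between them, the core of the element bound by the interferon complex, was searched on both strands and lies in 1131 of 32851 promoters (3.44%). TTC and GAA with any 4 bases between them, the wider-spaced palindrome that STAT proteins can bind, lies in 2284 (6.95%). Of the 8 members with a promoter in the table, only Stat2 held either of them. A match is a run of letters and not a shown binding site.

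Socs2 restrains growth hormone signalling and is itself a target of Stat5. It was at 89.5 CPM (80.98 to 98.8) in mutant and 71.2 CPM (63.1 to 80.0) in wild-type endothelial cells. Choroid plexus cells (26.4 and 31.2 CPM) and neuron lineage cells (22.6 and 28.1 CPM) followed with overlapping intervals. Microglia had 23 mutant and 18 wild-type UMIs in all, or 0.889 and 0.608 CPM. Within the neuron lineage Socs2 was at 29.0 and 39.5 CPM in neuroblasts and at 13.4 and 12.7 CPM in cycling progenitors. Cish, another Stat5 target that dampens the same receptors, had its own pattern, with 57.3 and 70.1 CPM in choroid plexus cells, which also carry the prolactin receptor Prlr (515 and 487 CPM, a marker used in that gate), and 17.9 and 19.2 CPM in endothelial cells.

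Socs3 blocks the signalling chain of the interleukin 6 family and is induced by Stat3. It was at 502 CPM (493 to 511) in mutant and 543 CPM (535 to 552) in wild-type microglia. Mural cells held 427 and 322 CPM, endothelial cells 172 and 154 CPM, astrocytes 60.7 and 94.2 CPM, neuron lineage cells 15.6 and 24.5 CPM, and choroid plexus cells 4.94 and 10.5 CPM. No neighbours in this order overlapped in either library. A Socs3 UMI was found in 82.3% of mutant and 78.9% of wild-type microglia, against 2.53% and 4.76% of choroid plexus cells, whose median depth was higher (12024 and 10198 UMIs). Thinned to 2000 UMIs, the shares in microglia were 53.0% and 53.1%.

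The Socs3 promoter is shown because it alone among the 8 members holds TTCNNNGAA, the palindrome that STAT dimers bind. The RefSeq window (GRCm38.p6, chr11:117969317-117969616, minus strand, 300 bases, 5′ to 3′) has the match TTCTTAGAA in capitals, 154 bases before the gene start. The annotation used for the loci puts the gene at 117966079 to 117970047, so that the window lies inside its span there.

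Socs3: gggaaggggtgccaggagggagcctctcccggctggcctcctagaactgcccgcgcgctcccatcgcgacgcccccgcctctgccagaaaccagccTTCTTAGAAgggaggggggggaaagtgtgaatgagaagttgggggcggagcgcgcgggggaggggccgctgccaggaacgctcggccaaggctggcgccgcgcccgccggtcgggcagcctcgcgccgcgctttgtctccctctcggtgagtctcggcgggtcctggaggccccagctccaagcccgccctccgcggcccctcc

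TTCNNNGAA reads the same on both strands in its fixed letters and lies in 2726 of the 32851 promoters (8.30%). Absence of these letters from the windows of the other 7 members says nothing about STAT binding there.

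The finer gates showed where Socs3 was carried. In smooth muscle cells it was at 935 CPM (825 to 1055) in the mutant library and 701 CPM (579 to 842) in wild type, from 42 and 27 cells, against 78.6 and 107 CPM in pericytes. Arterial endothelial cells held 364 and 251 CPM and capillary cells 165 and 140 CPM. Venous endothelial cells held 249 and 439 CPM from 21 and 23 cells. Their summed level of 16 homeostatic microglia genes was 112 CPM in mutant and 2014 CPM in wild type, and its part in the venous value was not tested. The summed level of 18 immediate early genes, which dissociation induces, was 32279 CPM in mutant and 50946 CPM in wild-type venous cells, and its part was not tested either. The venous ratio of 0.567 (0.351 to 0.896) stood where 17.5% of the 771 genes measured passed 1.5 times. In smooth muscle cells the immediate early sum was 34403 CPM in mutant and 33698 CPM in wild type, against 17972 and 16176 CPM in pericytes, and its part in that result was not tested. Arterial cells, with more Socs3 than capillary cells, had a lower immediate early sum, at 26573 and 31827 CPM against 33782 and 33251 CPM.

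Microglia gated as chemokine-high by Ccl3 and Ccl4 held 593 CPM of Socs3 in the mutant and 613 CPM in the wild-type library. Cells low in both chemokine and heat shock genes held 477 and 504.3 CPM, and heat shock-high cells 481 and 539 CPM. The 114 mutant and 194 wild-type cells high in both held 491 and 640 CPM, a ratio of mutant over wild type of 0.768 (0.676 to 0.871). The ratio of chemokine-high to both-low cells was 1.24 in mutant and 1.21 in wild type. Stat3 ran the other way, at 208 and 224 CPM in chemokine-high cells and 255 and 255 CPM in both-low cells, and Jak1 likewise, at 226 and 208 CPM against 241 and 229 CPM.

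**Figure D3:**
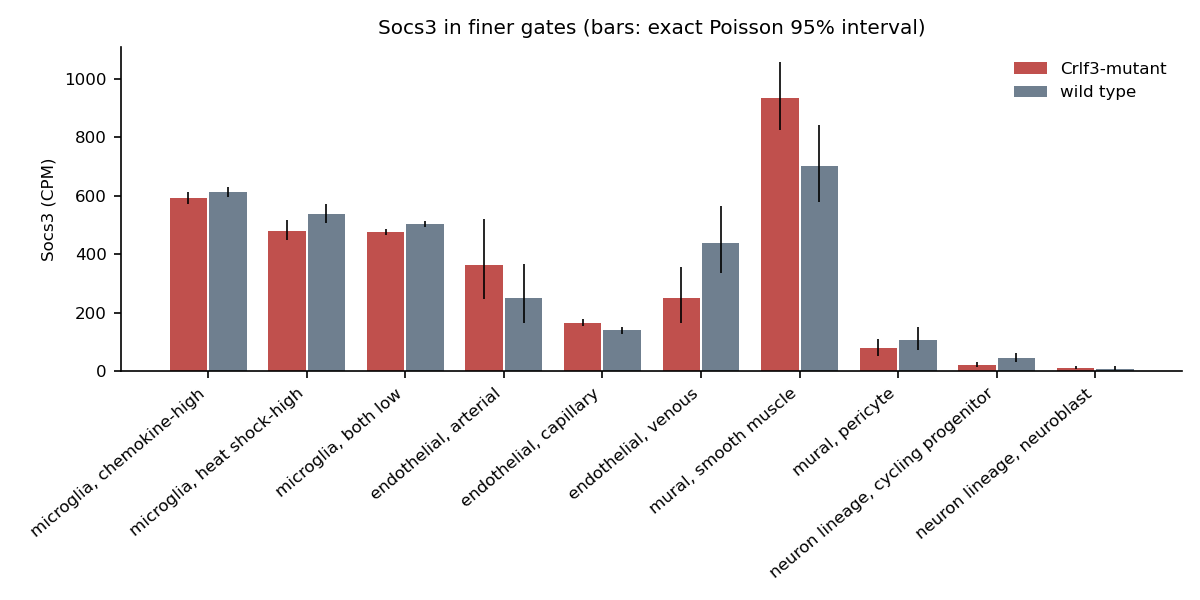
Socs3 level in CPM (vertical axis, from 0) in 10 finer gates (horizontal axis) of the Crlf3-mutant (red) and wild-type (grey) library, with exact Poisson 95% intervals as lines. Smooth muscle cells stand highest at 935 and 701 CPM, pericytes lie at 78.6 and 107 CPM, and chemokine-high microglia lie above both-low microglia in each library.

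Across the 12 points of class and library, Socs3 varied most closely with Stat3 among the other members (Pearson r of 0.909), and Stat3 with Tyk2 (0.910) and Jak1 (0.905). Jak2 varied with Stat2 (0.865). Socs2 ran against Jak1 (-0.743). The genes most like Socs3 were Lgals8, Tnip2 and Pold4 (0.979, 0.979 and 0.972), and those most like Stat3 were Plod3, Tob2 and Brk1 (0.986, 0.976 and 0.971). Slc39a10, Phactr4 and Plpp5 were most like Stat2 (0.973, 0.968 and 0.958), and Rai14, Pqlc1 and Ssx2ip most like Socs2 (0.954, 0.947 and 0.944). Nothing about shared function follows from these likenesses.

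Between genotypes most ratios lay within 1.5 times. A gene counted as measured in a class with at least 30 UMIs and 10 CPM in the library where it was higher, which 40 of the 54 pairs of gene and class reached. Of the 40, 0 were higher in the mutant library by 1.5 times or more and 4 were lower by that much. These were Socs3 in astrocytes, choroid plexus cells and neuron lineage cells, and Stat2 in neuron lineage cells. The 14 other pairs fell short of the minimum: Socs2 in microglia, Socs2 and Stat6 in astrocytes, and the remainder in mural, choroid plexus and neuron lineage cells.

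In microglia 0 of the 8 measured genes passed 1.5 times, where 0.284% of all 8096 genes measured there did (0.124% higher and 0.161% lower). The ratios of mutant over wild type ran from 0.895 for Stat2 to 1.07 for Stat5b. In the smaller heat shock-high gate Stat2 was at 8.59 CPM in mutant and 22.9 CPM in wild type, from 14 and 48 UMIs, a ratio of 0.374 (0.191 to 0.690), where 5.81% of the 7199 genes measured passed. In both-low and chemokine-high microglia the Stat2 ratio was 0.949 and 1.07. Socs3 was at 502 against 543 CPM, a ratio of 0.924 (0.903 to 0.946), and Jak1 had a ratio of 1.07 (1.03 to 1.11). In endothelial cells 0 of 9 passed, against 2.17% of all 8491 genes (0.954% higher and 1.21% lower). There the largest departures were Socs2 at 1.26 (1.08 to 1.47), from 400 mutant and 282 wild-type UMIs, and Socs3 at 1.12 (1.001 to 1.24). The median log2 ratio of the genes was 0.02 in microglia and -0.02 in endothelial cells, beside 0.01 over all measured genes in each class.

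In mural cells 0 of 4 passed, against 9.42% of all 3854 genes (6.77% higher and 2.65% lower). Stat6 was at 80.2 CPM in mutant and 55.1 CPM in wild type, a ratio of 1.46 (0.892 to 2.44). In pericytes alone Stat6 was at 103 CPM in mutant and 55.2 CPM in wild type, from 42 and 16 UMIs, a ratio of 1.87 (1.03 to 3.56), where 9.75% of the 2522 genes measured passed. In smooth muscle cells it had 13 and 9 UMIs and a ratio of 0.849. Socs3 was at 427 and 322 CPM, a ratio of 1.33 (1.09 to 1.63), but 64.8% of the mutant and 53.4% of the wild-type Socs3 UMIs came from the 5% of mural cells with the most, and one mutant cell held 49. Without those cells Socs3 was at 170 and 165 CPM. In choroid plexus cells 1 of 6 passed, against 5.29% of all 7186 genes (2.96% higher and 2.32% lower). Socs3 had 12 mutant and 59 wild-type UMIs there, and the level carried over from microglia, estimated from C1qa and Ctss, was 6.32 and 7.01 CPM in mutant and 6.17 and 7.34 CPM in wild type. The measured 4.94 CPM in mutant lay below both estimates, and the 10.5 CPM (8.01 to 13.6) in wild type above both, with 12 of the 59 UMIs in one cell. How much of either level is carried over was not tested.

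In astrocytes 1 of 7 passed, against 2.79% of all 9305 genes (1.2% higher and 1.59% lower). Socs3 was at 60.7 CPM (52.9 to 69.2) in mutant and 94.2 CPM (85.7 to 103) in wild type, from 221 and 444 UMIs, a ratio of 0.644 (0.545 to 0.758). The level carried over from microglia, estimated from C1qa and Ctss, was 1.29 and 1.66 CPM in mutant and 2.61 and 2.78 CPM in wild type. The transcripts were concentrated in few cells. The 5% of astrocytes with the most Socs3 UMIs held 83.7% of them in the mutant and 60.8% in the wild-type library. At least 3 Socs3 UMIs were found in 16 of 487 mutant astrocytes, or 3.29% (1.89 to 5.28, exact Clopper-Pearson 95% interval), and in 61 of 776 wild-type astrocytes, or 7.86% (6.07 to 9.98).

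Those Socs3-high astrocytes differed from the rest in other genes. Their immediate early gene sum was 36076 CPM in mutant and 26560 CPM in wild type, against 5008 and 4346 CPM in the other astrocytes. Gfap, a filament gene of reactive astrocytes, was at 1174 and 942 CPM against 488 and 514 CPM. Aqp4, the water channel used in the gate, was lower at 411 and 713 CPM against 1106 and 1024 CPM. Their homeostatic microglia sum was 182 CPM in mutant and 179 CPM in wild type, against 228 and 346 CPM in the other astrocytes. These cells were picked by their Socs3 counts, so the values only describe them. The part of immediate early induction, or of RNA carried over from microglia, in the difference between libraries was not tested. The immediate early sum over all astrocytes was 6273 CPM in mutant and 6428 CPM in wild type.

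The astrocyte ratio also depended on which cells were summed. In cells with Xist and no Y-linked UMI, Socs3 was at 63.2 CPM in the mutant and 47.9 CPM in the wild-type library, a ratio of 1.32 (1.01 to 1.72). In cells with Y-linked UMIs and no Xist it was at 49.3 and 159 CPM, a ratio of 0.310 (0.233 to 0.408). With 2 mice pooled in each library, cells of one sex may come from 1 animal, so animal and genotype cannot be told apart.

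In neuron lineage cells 2 of 6 passed, against 5.01% of all 8958 genes (2.66% higher and 2.36% lower). Stat2 was at 22.6 CPM (17.2 to 29.2) in mutant and 34.1 CPM (25.8 to 44.2) in wild type, from 58 and 57 UMIs, a ratio of 0.663 (0.452 to 0.973). In cycling progenitors it was at 29.7 CPM in mutant and 43.7 CPM in wild type, a ratio of 0.679 (0.399 to 1.15) that did not pass. In neuroblasts it was at 17.8 and 27.0 CPM, too few UMIs to count as measured. Jak1 in cycling progenitors was at 55.5 CPM in mutant and 90.2 CPM in wild type, a ratio of 0.615 (0.424 to 0.892), and Socs3 there at 21.0 and 45.1 CPM, a ratio of 0.467 (0.258 to 0.829), where 9.85% of the 5997 genes measured passed. The homeostatic microglia sum of these progenitors was 52.6 CPM in mutant and 1519 CPM in wild type, and its part was not tested. Socs3 was at 15.6 CPM in mutant and 24.5 CPM in wild type, a ratio of 0.636 (0.401 to 1.01) from 40 and 41 UMIs. In wild type 3 cells with at least 3 Socs3 UMIs had a homeostatic microglia sum of 18142 CPM, against 19.0 CPM in the 3 such mutant cells. Without the 5% of cells with the most microglia UMIs Socs3 was at 14.9 and 11.1 CPM, and the ratio turned to 1.34.

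**Figure D4:**
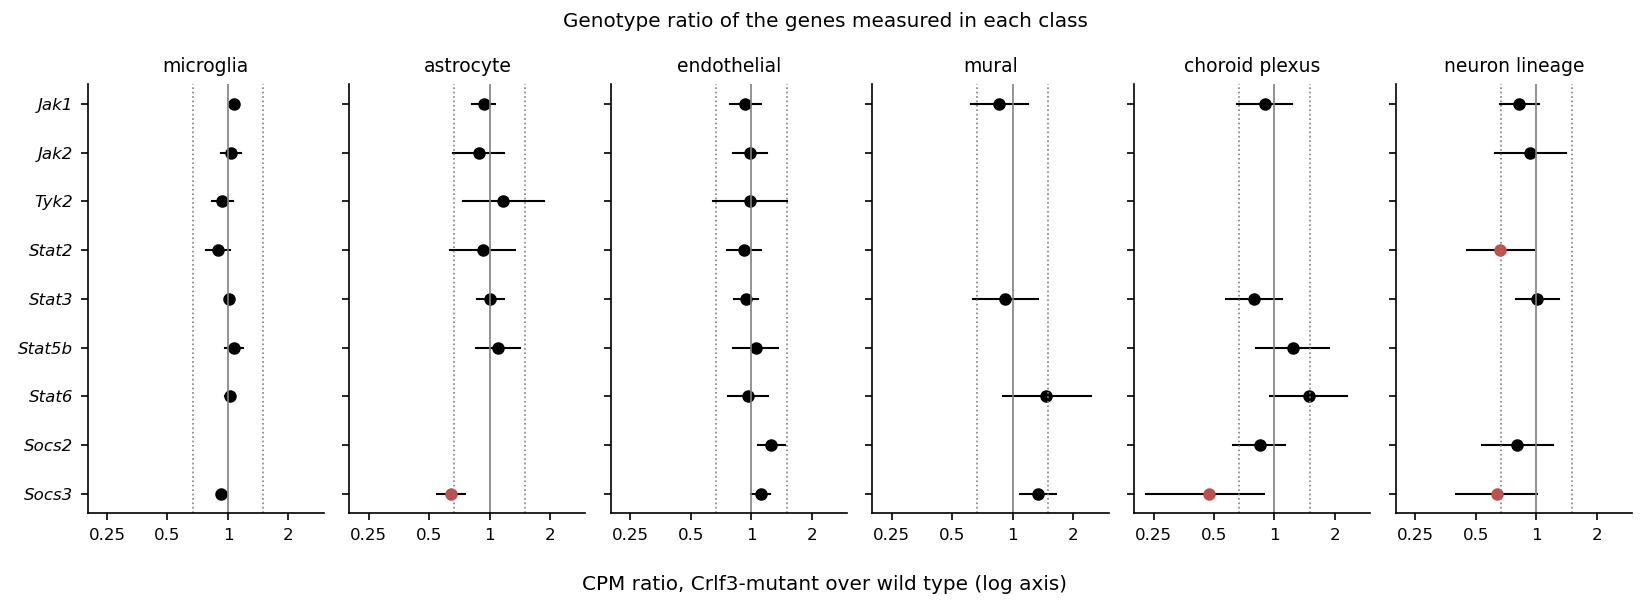
CPM ratio of the Crlf3-mutant over the wild-type library (horizontal log axis) for each gene measured in a class (rows; 1 panel per class), with exact conditional binomial 95% intervals as lines, the solid line at 1 and dotted lines at 1.5 times in either direction. Red points lie past 1.5 times: Socs3 in astrocytes, choroid plexus and neuron lineage cells, and Stat2 in neuron lineage cells.

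**Figure D5:**
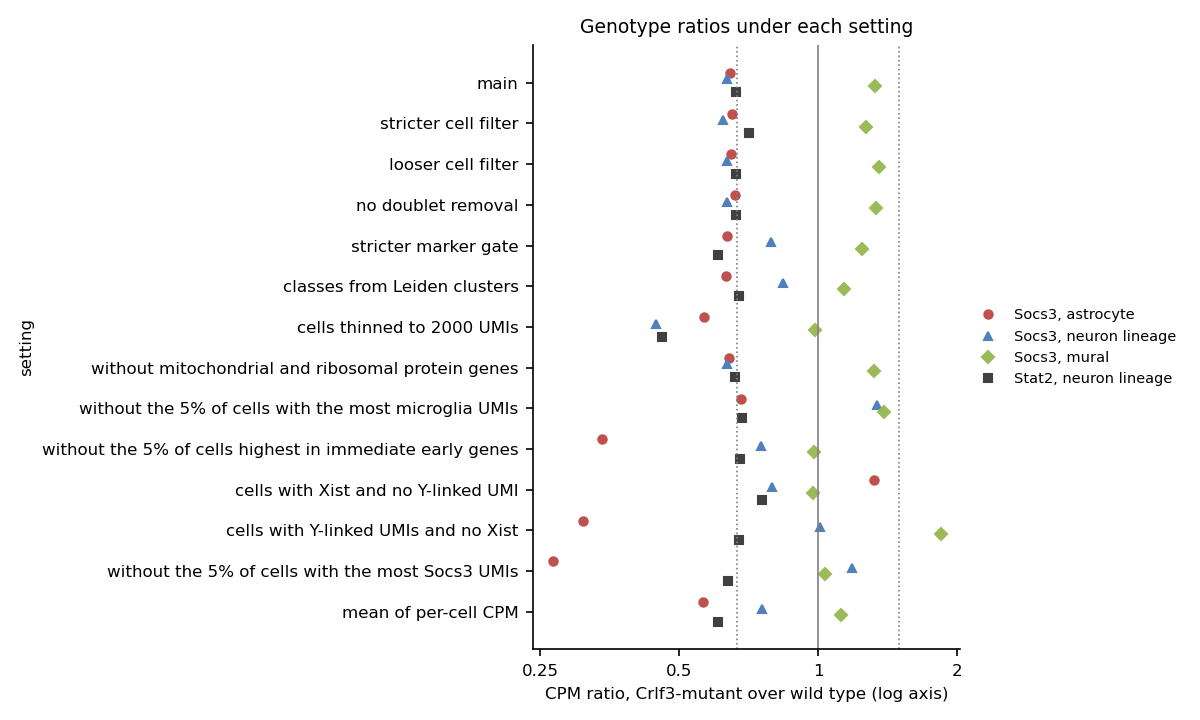
CPM ratio of the Crlf3-mutant over the wild-type library (horizontal log axis) under each way of choosing or counting cells (rows, the first being the one reported), for Socs3 in 3 classes and Stat2 in neuron lineage cells. Socs3 in astrocytes spreads from 0.266 to 1.32 and crosses 1, while Stat2 in neuron lineage cells stays below 1 throughout, between 0.459 and 0.755.

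Of the 10 other JAK, STAT and SOCS genes, 8 were measured in microglia and 8 in endothelial cells, and 0 passed 1.5 times in either. Over all measured genes 0.284% passed in microglia and 2.17% in endothelial cells, so counts of 0 do not set these lists apart. Of 32 receptor genes, 0 of 20 measured passed in microglia and 0 of 18 in endothelial cells. Il7r was the microglial receptor farthest from 1, at 54.8 CPM in mutant and 71.4 CPM in wild type. Of the 11 other negative regulators, 0 of 10 passed in microglia and 0 of 9 in endothelial cells. Ptpn6, a phosphatase of blood-derived cells, was at 261 and 268 CPM in microglia.

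In astrocytes 1 of 13 receptors passed, against 2.79% of all genes there, Osmr, at 18.9 CPM in mutant and 11.5 CPM in wild type (ratio 1.65, 1.14 to 2.41). In mural cells, where 9.42% of all genes passed, 1 of 7 receptors did, Il6st, at 83.1 and 44.0 CPM (ratio 1.89, 1.12 to 3.31, from 57 and 20 UMIs). In neuron lineage cells Il10ra was higher, at 12.1 against 5.38 CPM, and Ifngr1 lower, at 13.3 against 23.3 CPM, of 8 receptors measured, against 5.01% of all genes. Both are microglial genes, though they went opposite ways. Of 14 homeostatic microglia genes measured in that class, 10 were lower in the mutant library, against 2.36% of all genes. The sum of all 16 was 52.6 CPM in mutant and 1519 CPM in wild-type cycling progenitors. In neuroblasts it was 825 and 339 CPM. Its part in these receptor levels was not tested. The list of 22 ligands also holds Csf1, Il34 and Igf1, whose receptors use no Janus kinase. Of the ligands, 0 of 4 measured passed in microglia, against 0.284% of all genes there. Osm was at 33.6 and 38.0 CPM and Clcf1 at 70.4 and 69.5 CPM in microglia.

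Of the Stat3 response genes, 1 of 11 measured passed in microglia, against 0.284% of all genes: Vim, at 10.7 CPM in mutant and 5.78 CPM in wild type. Vim was at 27.5 and 6.01 CPM in chemokine-high microglia, from 152 and 52 UMIs, and at 6.02 and 5.62 CPM in both-low microglia. In astrocytes 1 of 9 passed (Osmr), in endothelial cells 1 of 11 (Icam1, lower at 54.4 against 85.3 CPM, where 2.17% of all genes passed) and in mural cells 1 of 7 (Fosl2, at 59.7 against 13.2 CPM, where 9.42% did). Of the Stat5 response genes, Socs2 among them, 0 of 6 passed in endothelial cells, where 2.17% of all genes did. In choroid plexus cells 0 of 3 did, Socs2 again among them, where 5.29% of all genes did. In astrocytes 2 of 6 interferon response genes were lower, against 1.59% of all genes, Ifit3 at 3.57 against 10.2 CPM and Bst2 at 4.94 against 10.2 CPM. In the same cells 6 of 10 homeostatic microglia genes measured were lower and 0 higher, with a summed level of 226 CPM in mutant and 330 CPM in wild type, and their part was not tested. In neuron lineage cells 1 of 2 interferon response genes was lower, Ifit2, at 20.7 against 32.3 CPM, where 2.36% of all genes were.

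Choroid plexus cells stood apart. There 9 of 10 measured interferon response genes were higher in the mutant library and 0 lower, with a median log2 ratio of 2.66 beside 0.05 over all measured genes. Isg15 was at 32.1 CPM in mutant and 0.357 CPM in wild type, from 78 and 2 UMIs in 11 of 158 and 2 of 441 cells. Irf7 was at 45.3 and 7.14 CPM. Without the 5% of cells highest in interferon response genes, Isg15 was at 13.3 and 0.198 CPM. Stat2 was at 6.59 CPM (3.77 to 10.7) in mutant and 5.71 CPM (3.91 to 8.06) in wild type and did not reach the minimum. The mutant class held 158 cells and the wild-type class 441, and cells of single animals cannot be told apart.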

How the data were processed

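The authors deposited 1 matrix per library of raw UMI counts for each gene in each barcode; per the submitters' processing notes they used Cell Ranger, with build mm10, and Partek is listed without a role. The labels' protocols give Cell Ranger version 6.1.1. No cell annotation or map from cells to animals was used, so each genotype is 1 library (n = 1) and no p-value is given.

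A cell needed 500 genes, 1000 UMIs and a mitochondrial share of 10% or less. Scrublet (scanpy 1.11.5, expected doublet rate 0.06) removed 77 mutant (1.44%) and 148 wild-type (2.04%) cells. A cell entered a class when its markers reached a set number of UMIs per 10000 (100 for microglia, 10 to 100 for other classes) with at least 3 markers detected, and cells in more than 1 gate were left out. The gate thresholds were set after the files were read. UMI counts were summed per class and library and divided by the class total (CPM). Intervals were computed with scipy 1.17.1 and cover counting error only. Uneven spread of transcripts between cells, and differences between animals, dissociations or sorts, are not in them. A member counts as called past a CPM ratio of 1.5. A level carried by free RNA was estimated as the CPM of a microglial gene in the class times the Socs3 UMIs per UMI of that gene in microglia. The ratio and call were tested on simulated data.

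The 9 genes were taken in each class of at least 100 cells per library, and in smaller classes with 30 UMIs. Of each gene list up to 4 members with the largest ratio per class could be named, plus Il6st, Ifnar1, Ifnar2, Il10ra, Lifr, Osmr, Ghr and Il4ra. Other genes, such as Cish, Ptpn6, Prlr, Cntfr and Stat5a, were named after their values were seen. The 3 genes most like each member were taken from 7443 genes. The members and lists were chosen with earlier results of these data known. Gene positions are from GENCODE M21 (GRCm38) and promoters from RefSeq (GRCm38.p6, 8 of 9 members matched, Socs2 not). Mx1 could not be matched to a single row. Some genes of these lists are not reported here. Alternatives were other cell filters, no doublet removal, a stricter gate, classes from Leiden clusters (leidenalg 0.10.2), thinning, other CPM denominators, removal of extreme cells, the 2 sexes apart, and other thresholds.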

Additional observations from a re-analysis of the deposited data

Results flagged for a closer look

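Socs3 in astrocytes differed between genotypes in opposite directions in the cells of each sex. In cells with Xist and no Y-linked UMI it was at 63.2 CPM in the 246 mutant cells and 47.9 CPM in the 398 wild-type cells, a ratio of 1.32 (1.01 to 1.72). In cells with Y-linked UMIs and no Xist it was at 49.3 CPM in 165 mutant cells and 159 CPM in 224 wild-type cells, a ratio of 0.310 (0.233 to 0.408). The difference between the sexes was not tested, since there was 1 library per genotype and the animals behind the cells of each sex are not known.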

How the results depend on the processing

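No paired analysis was possible because each genotype had 1 library and the replicate numbers only name it. The count of 4 gene and class pairs past 1.5 times became 1 with cells thinned to 2000 UMIs, 0 without the 5% of cells with the most microglia UMIs (Socs3 in astrocytes was then 0.680, just short of the threshold), 1 without the 5% of cells highest in immediate early genes, 0 in Xist cells and 2 in Y-linked cells (1 higher, Socs3 in mural cells, and 1 lower). It became 9 at a lower fold threshold, 1 at a fold of 2 and 1 with a minimum of 100 UMIs and 50 CPM. It was 3 to 5 under the other alternatives, but not always the same pairs. With Leiden classes it was 3, sharing 2 with the reported pairs. Stat5b was then higher in neuron lineage cells, and neither Socs3 nor Stat2 passed there. With the mean of each cell's CPM it was 5. Stat6 was then higher in choroid plexus and mural cells, and Socs3 in neuron lineage cells did not pass. Of the recomputed single ratios, 444 stayed within the counting interval of the reported value, and 27 others moved. For the 4 pairs past 1.5 times 3 ratios reversed. Over all pairs 50 ratios fell on the other side of 1, of which 37 stayed within the counting interval and 10 were moved ones, such as Tyk2 in cells with Y-linked UMIs, at 0.446 in astrocytes and 1.73 in endothelial cells. Socs3 in astrocytes reversed to 1.32 in Xist cells. Socs3 in neuron lineage cells reversed to 1.34 without the cells with the most microglia UMIs and to 1.01 in Y-linked cells. It was 1.18 without the 5% of cells with the most Socs3 UMIs, an alternative chosen after seeing the data, under which Socs3 in astrocytes was 0.266. Socs3 in astrocytes was 0.340 without the 5% of cells highest in immediate early genes, and Socs3 in mural cells ran from 0.976 to 1.84. The 59 pathway list genes past 1.5 times over all classes became 14 with the higher minimum. The ratio of Socs3 in chemokine-high to both-low mutant microglia was 1.30 at a higher gate threshold. Thinned choroid plexus cells had too few Socs3 UMIs to give a ratio. The causes were not tested beyond the cells that each setting leaves out. Depth limits the mural, choroid plexus and neuron lineage classes, where the interval of each measured ratio, except that of Stat3 in neuron lineage cells, reached past 1.5 times.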

Other observations

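Classes with under 100 cells were outside the comparison, and Socs3 showed its widest values in them. Border macrophages held 600 CPM of Socs3 in the mutant library and 616 CPM in wild type, with 21 and 68 cells, which is as high as microglia. Their Stat2 level of 86.9 and 87.7 CPM, Stat6 level of 126 and 118 CPM and Stat3 level of 229 and 241 CPM were also alike between libraries, as was Jak1 at 245 and 210 CPM. Ependymal cells, the ciliated lining of the ventricles, held 1016 CPM of Socs3 in the mutant library and 424 CPM in wild type, with 17 and 48 cells. Jak1 was at 42.3 and 68.4 CPM in them, from 7 and 31 UMIs, a ratio of 0.619 (0.230 to 1.43). Their immediate early gene sum was 22960 CPM in mutant and 12684 CPM in wild type, and its part in these values was not tested.

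Fibroblasts held 66.8 CPM of Socs3 in 7 mutant cells, from 4 UMIs, and 1318 CPM in 22 wild-type cells, from 280 UMIs. Jak1 was at 117 and 311 CPM in them, from 7 and 66 UMIs, a ratio of 0.376 (0.145 to 0.819), and Stat3 at 83.5 and 141 CPM, from 5 and 30 UMIs, a ratio of 0.591 (0.179 to 1.54). The immediate early gene sum was 3705 CPM in the mutant and 29341 CPM in the wild-type fibroblasts, and its part in these values was not tested. Lymphocytes, with 14 mutant and 13 wild-type cells, held 550 and 332 CPM of Jak1, from 37 and 23 UMIs, a ratio of 1.66 (0.959 to 2.92).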
